A study of Mus musculus with 2 samples.

Results

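The serine proteases of the kallikrein (Klk), Tmprss and Prss families, together with matriptase (St14), hepsin (Hpn), the plasminogen activators Plau and Plat and the Kunitz-type inhibitors Spint1 and Spint2, were examined in the developing ureter with and without Pparg, the gene of a nuclear receptor. The rule that picks the members reads only the gene names of the array annotation, and it gave 88 genes with 105 probes out of 29924 gene names and 39429 probes. They comprised 27 kallikreins, 38 Prss genes, 19 type II transmembrane proteases (17 Tmprss genes, St14 and Hpn), 2 plasminogen activators and 2 Kunitz inhibitors.

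RNA of E18.5 ureters from NMRI mice was compared on 2 two-colour arrays. On each array a pool labelled Pparg-cKO, with genotype Pax2-cre/+; Pparg(fl/fl), was set directly against a pool labelled control, with genotype Pparg(fl/?), in which 1 allele is floxed and the other is not stated. Both pools were female on the array of replicate 1 and male on that of replicate 2. Per the study's text the controls were littermates without cre, each pool held ureters of several embryos, the floxed part comprises exons 2 and 3, and the Pax2-cre line recombines in the nephric duct, the ureteric epithelium and the collecting ducts. The RNA came from whole ureters, in which other tissues are present too. The dyes were exchanged between the arrays, which means that dye orientation, sex and array cannot be told apart.

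A serine protease of this kind is made as an inactive zymogen and is switched on by a single cut. At the surface of epithelia the membrane-anchored members form cascades: matriptase and the lipid-anchored prostasin (Prss8) activate each other, hepsin and matriptase process growth factor precursors such as that of Hgf, prostasin and its relatives cleave the epithelial sodium channel, and Spint1 and Spint2 are the Kunitz inhibitors that keep matriptase and hepsin in check. Secreted kallikreins release kinins or degrade cell junction proteins in skin and glands, and urokinase (Plau) and tissue plasminogen activator (Plat) turn plasminogen into plasmin. The urothelium that lines the ureter is such an epithelium, with basal, intermediate and superficial cells.

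Ratios are given as log2 of Pparg-cKO over control, with the sign of the deposited value table. By the dye labels as written, the sign would be the opposite on both arrays. The direction used is therefore only likely, resting on the titles of the deposited columns, on the way the study lists its pools and on superficial urothelial markers in its tissue sections, and if the dye labels are right every higher becomes lower while sizes, counts and p-values stay. Pparg itself was measured by a probe at chr6:115440213-115440272 (mouse build mm9), downstream of the floxed exons. In the study's tissue sections a transcript without these exons was still made and was raised in Pparg-cKO embryos at this stage, so that a higher reading does not go against the labels. The probe gave log2 ratios of 0.98 (female array) and 0.96 (male array), a mean difference of 1.96-fold (limma adjusted p = 0.0373).

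The probes whose readings the account turns on are shown by their sequence, because each gene is represented by what a single stretch of 60 bases can bind. The last 30 bases of each probe are printed 5′ to 3′ in the sense of the transcript, with positions of the whole probe on mm9 as the array design gives them. Capitals mark the polyadenylation signal AATAAA where these bases hold it. Of the 105 probes, 21 held this motif anywhere in their sense strand, which was the only strand searched.
Prss32, chr17:23996183-23996242, plus strand: aaggaagaggtttttcccccagcctttcag
Tmprss4, chr9:44980979-44981038, minus strand: atcattaaacaggtatgagaattcgctggc
St14, chr9:30897249-30897308, minus strand: aagagttggagagagaacttgcgtgctagc
Hpn, chr7:31883750-31883809, minus strand: gctctttaaatAATAAAggtggttttgatt
Spint1, brighter probe, chr2:119074929-119074988, plus strand: gaaagttggtgttttgtgtcttgttcaaag
Spint1, dimmer probe, chr2:119074872-119074931, plus strand: agcagccttgagccaggagtactgtatata
Spint2, brighter probe, chr7:30041332-30041381, minus strand: agagagcaactgcttgcgtctgagatcatt
Spint2, dimmer probe, chr7:30066532-30066591, minus strand: caggtggccagccgagaactagacgtccac
The Spint1 probes are neighbours that share 3 bases, and the position given for the brighter Spint2 probe covers only 50 of its 60 bases. Exon and untranslated parts under the probes were not analysed here.

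No member passed either test. The fold rule, set after the thresholds of the study and applied here to the normalised ratios, asks for a difference of 1.5-fold or more that points the same way on both arrays, and for a processed signal of 100 or more in whichever channel is brighter. Of all 14015 genes with such signals 258 (1.84%) passed, 111 higher and 147 lower, and of the 13 members with such signals 0 passed. In limma, with Benjamini-Hochberg adjustment over 22499 genes, 169 genes (0.751%) had an adjusted p under 0.05 and 0 of the 52 members tested did. At an unadjusted p under 0.05 there were 6 members (11.5% of 52) against 1914 genes (8.51%): Prss32, Tmprss4, Hpn, St14 and Tmprss11g had a mean ratio above 0 and Prss53 one below 0. Over the members tested the median log2 ratio was -0.03, beside 0.01 for all genes tested. The ratio lay above 0 on both arrays for 8 members, below 0 on both for 15, and had opposite signs for 29. The signs on the arrays were the same for 44.2% of the members and 52.8% of all genes tested. The remaining 36 members were not tested, 35 because their probe did not clear the background in either channel of 1 or both arrays and Klk11 because it had no usable spot on 1 array.

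**Figure D1:**
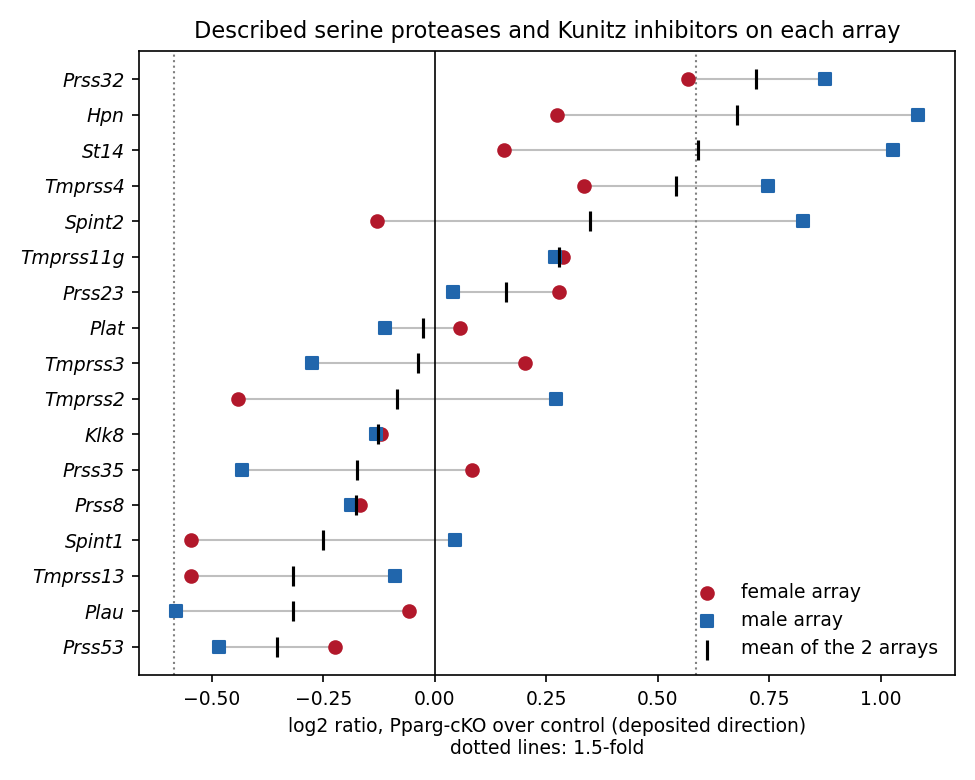
Log2 ratio of Pparg-cKO over control (x axis, dimensionless) for the 17 members described one by one, with circles for the female array, squares for the male array and bars for the mean of both; the dotted lines mark 1.5-fold. No member lies beyond 1.5-fold on both arrays: Prss32 comes closest, at 0.57 and 0.88, and Hpn, St14, Tmprss4 and Spint2 lie beyond the line on the male array alone.

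Of these 6 members 4 were type II transmembrane proteases. These sit in the plasma membrane by a stretch near their start and carry the catalytic domain outside the cell. Of 19 genes 12 were tested, 4 above 0 on both arrays, 4 below 0 on both and 4 with opposite signs, with a class median of -0.05. Tmprss2, which is known from prostate and airway epithelium and for cutting viral surface proteins, had processed signals of 2180 in the female Pparg-cKO pool and 2810 in the female control pool, and of 2900 and 2620 in the male ones. The Pparg-cKO pool was thus the lower one among the female pools and the higher one among the male pools. The log2 ratios were -0.44 and 0.27, with a mean of -0.09 (SD 0.50, n = 2 arrays), and limma gave an adjusted p of 0.971.

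Matriptase, encoded by St14, is the central activator of the epithelial cascade. Its signals were 302 in the female Pparg-cKO pool against 273 in the female control pool, and 588 against 289 in the male pools. The male Pparg-cKO pool stood alone, at 2.03 times the signal of its control, while the other 3 pools lay between 273 and 302. The log2 ratios were 0.15 and 1.03, a mean difference of 1.51-fold with a 95% confidence interval from 1.02 to 2.23, and the unadjusted limma p of 0.0438 became 0.572 after adjustment. Hpn, a protease that processes the Hgf precursor and uromodulin, was alike in shape, with signals of 71.0 against 51.3 in the female pools and 137 against 58.0 in the male pools. Its log2 ratios were 0.27 and 1.08, the mean difference was 1.60-fold (95% confidence interval 1.11 to 2.32), and the limma adjusted p was 0.441. Both Pparg-cKO pools were above both control pools for each of these genes.

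Tmprss4, a membrane protease able to activate the sodium channel, gave 151 against 116 in the female and 199 against 111 in the male pools. Here too both Pparg-cKO pools were above both controls. The log2 ratios of 0.33 and 0.75 gave a mean of 0.54, or 1.46-fold (95% confidence interval 1.14 to 1.86), with an unadjusted limma p of 0.0112 and an adjusted p of 0.328. Tmprss13, a protease of stratified epithelia, had signals of 698 against 1060 in the female pools and 990 against 1090 in the male pools. Its log2 ratios were -0.55 and -0.09 and the limma adjusted p was 0.659. Only the female Pparg-cKO pool stood apart, below the other 3. Tmprss3, known from hereditary deafness, had opposite signs at 0.20 and -0.28 (limma adjusted p = 0.988), and its second probe was near background, with signals of 3.23 to 4.47.

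Among the Tmprss11 genes, 7 neighbours on chromosome 5 (from 86660703 to 87134388, mm9) that are known from skin, oesophagus and airway, 4 were tested. Tmprss11g, named here after its value was seen, had signals of 12.4 against 5.80 in the female and 11.0 against 5.88 in the male pools. Both Pparg-cKO pools were higher and the arrays gave nearly the same log2 ratio, 0.29 and 0.27, but these signals are low and the adjusted limma p was 0.565. The mean log2 ratio was 0.28 with an offset of 50 added to each channel and 1.00 from the scanner's own processed signals (limma adjusted p = 0.0629). Tmprss11a, Tmprss11b and Tmprss11e had mean log2 ratios of -0.09, -0.02 and -0.13. Of the other type II members, Tmprss6, the liver regulator of hepcidin, was at -0.11 and Tmprss5 at -0.06, and Tmprss15, the enteropeptidase of the gut, was not tested.

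The Kunitz inhibitors were each read by a pair of probes. Spint2 (also called HAI-2) gave 1610 against 1820 in the female pools and 3210 against 1790 in the male pools with its brighter probe, and 286 against 334 and 566 against 347 with its dimmer probe. The male Pparg-cKO pool was the high one by both probes and the other 3 pools lay close together. The log2 ratios were -0.13 and 0.83 by the brighter probe and -0.25 and 0.71 by the dimmer one. The mean of the brighter probe was 0.35 (SD 0.68, n = 2 arrays; limma adjusted p = 0.791), and its 95% confidence interval ran from 0.83-fold to 1.94-fold, so that no direction is settled. Spint1 (HAI-1) gave 972 against 1400 and 1320 against 1360 with its brighter probe, and 165 against 314 and 254 against 326 with its dimmer probe. The female Pparg-cKO pool was the low one by both. The log2 ratios were -0.55 and 0.05 by the brighter and -0.84 and -0.36 by the dimmer probe, and the mean of the brighter probe was -0.25 (SD 0.42, n = 2 arrays; limma adjusted p = 0.786). The normalised ratios of the probes thus differed in sign on the male array, although the probes lie next to each other. In the processed signals the male Pparg-cKO pool was below its control by both probes.

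**Figure D2:**
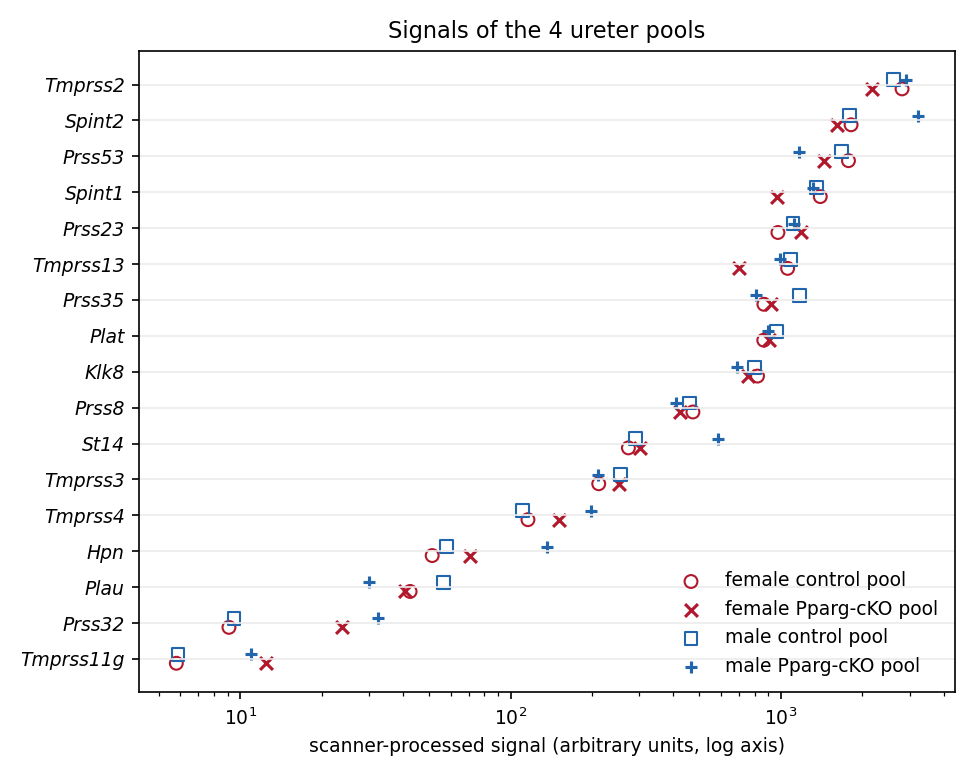
Scanner-processed signal (x axis, arbitrary units, logarithmic) of the same 17 members in the 4 pools, with circles and crosses for the female control and Pparg-cKO pools and squares and plus signs for the male ones. The male Pparg-cKO pool is set off to the right for Spint2, St14 and Hpn, while for Prss32 both Pparg-cKO pools (23.8 and 32.4) lie above both control pools (9.08 and 9.48); signals of different probes are not on a common scale and do not rank the genes.

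The male ratio exceeded the female ratio by at least 1.5-fold for 5 of the 52 members tested (9.62%) and for 1183 of all 22499 genes (5.26%), and the opposite held for 0 members and 316 genes (1.40%). The 5 members were Tmprss2, Spint1, Spint2, St14 and Hpn, all known products of epithelial cells. So are Prss8, Tmprss4 and Tmprss13, which did not pass, with log2 differences of -0.02, 0.41 and 0.46. Spint1 is counted by its brighter probe, at a log2 difference of 0.59 against a threshold of 0.585, and its dimmer probe, at 0.49, falls short of it, which would leave 4. With 1 array per sex and dye orientation this difference has no test. Genes that mark all epithelium moved with it: the median of their log2 ratios was 0.07 in the female pair of pools and 0.52 in the male pair, and all 5 of them were higher on the male array. The medians of the superficial urothelial genes were -1.50 and -0.93, with all 6 higher on the male array, and those of the basal genes 0.29 and 0.62, with 3 of 4 higher there. Cdh1, the cadherin of epithelial junctions, was at 0.07 and 1.10, Krt8 at -0.28 and 0.52, Krt18 at -1.04 and -0.54, Krt19 at 0.71 and 1.29, and Epcam at 0.41 and 0.48. Only Krt19 among these passed the fold rule, as higher, and 0 passed in limma. The summed signal of these 5 markers was 39000 in the female Pparg-cKO, 45500 in the female control, 52500 in the male Pparg-cKO and 39000 in the male control pool. The part of these markers in the ratios of the members was not tested. In such whole-tissue RNA, fewer cells of a type and less RNA per cell cannot be told apart.

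**Figure D3:**
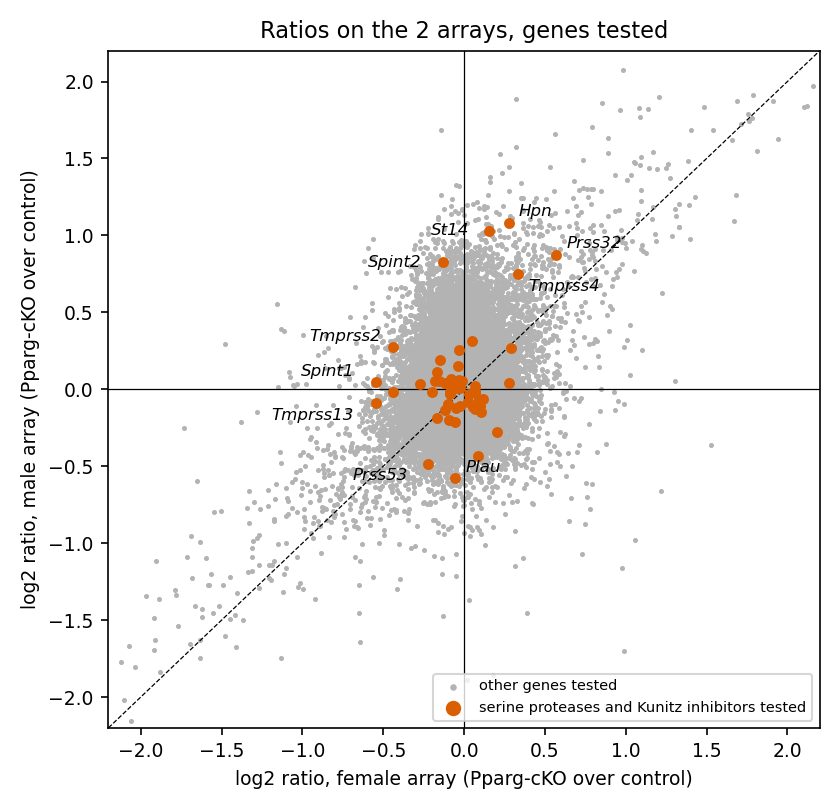
Log2 ratio of Pparg-cKO over control on the female (x axis) and on the male array (y axis), with grey points for genes tested and orange points for the 52 members tested; the dashed line marks equal ratios, and 38 genes beyond ±2.2 are outside the axes. Most members lie near the origin, and Hpn, St14 and Spint2 lie above the line with female ratios of 0.27, 0.15 and -0.13.

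The Prss genes are a mixed class of lipid-anchored, secreted and testis-type proteases. Prss23os, counted among them by its name and tested, is a transcript from the strand opposite to Prss23 and not a protease gene. Of 38 genes 22 were tested, 4 above 0 on both arrays, 5 below 0 on both and 13 with opposite signs, and the class median was -0.003. For 20 of these 22 the mean log2 ratio lay between -0.2 and 0.2, and Prss32 and Prss53 were the exceptions. Prss32, a tryptase-like protease, had the largest mean ratio of the members tested, and it is described here after its value was seen. Its signals were 23.8 in the female Pparg-cKO pool against 9.08 in the female control pool and 32.4 against 9.48 in the male pools, all well above background. These are 2.62-fold and 3.42-fold differences in the processed signal. With the offset of 50, which draws the ratios of dim probes towards 0, the log2 ratios were 0.57 and 0.88 and the mean was 0.72 (SD 0.22, n = 2 arrays), or 1.65-fold with a 95% confidence interval from 1.32 to 2.06.

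Prss32 passed the test under some settings and not under others. The main processing gave an unadjusted limma p of 0.0021 and an adjusted p of 0.134. Without the offset its mean log2 ratio was 1.13 (limma adjusted p = 0.00208) and with the scanner-processed signals 1.58 (limma adjusted p = 0.024), so that it passed under both. Under the other 6 alternatives the mean ranged from 0.71 to 1.65 and the limma adjusted p from 0.1055 to 0.533. The ratio was above 0 on both arrays in each of these analyses. Its signals were under the 100 that the fold rule asks for. Mast cell tryptases lie in the same part of chromosome 17, and Tpsab1, one of them, had signals of 54.1 against 25.7 and 50.1 against 22.0, with log2 ratios of 0.65 and 0.86 (limma adjusted p = 0.0898). Of the other mast cell genes, Kit, which other cells share, was at 0.36 and 0.81, while Cpa3 was at 0.35 and -0.05, Cma1 at 0.37 and -0.04, Tpsb2 at 0.15 and -0.10 and Mcpt4 at 0.84 and 0.005. The summed signal of the 6 mast cell genes was 2360 against 1850 in the female pools and 2390 against 2290 in the male pools. Their part in the ratio of Prss32 was not tested.

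**Figure D4:**
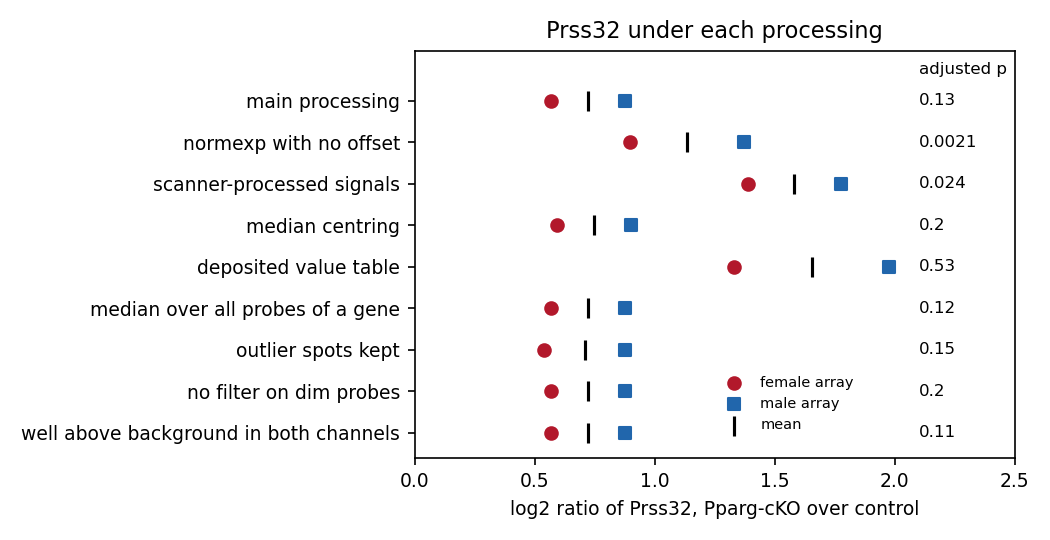
Log2 ratio of Prss32, Pparg-cKO over control (x axis), under the main processing and 8 alternatives (rows), with circles for the female array, squares for the male array and bars for the mean, and the limma adjusted p printed at the right. All points lie above 0, and the adjusted p is under 0.05 in 2 rows, normexp with no offset and scanner-processed signals.

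Prss53, a protease with more than 1 catalytic domain (polyserase-3), was the only member with a mean ratio below 0 and an unadjusted p under 0.05. Its signals were 1450 against 1780 in the female pools and 1170 against 1680 in the male pools, and both Pparg-cKO pools were below both controls. The log2 ratios of -0.22 and -0.48 gave a mean of -0.35, a 1.28-fold lower value, with an unadjusted limma p of 0.030 and an adjusted p of 0.498. Prss8, which encodes prostasin, lies 40.4 kb away by its probe. It gave 422 against 473 and 409 against 458, log2 ratios of -0.17 and -0.19 and a limma adjusted p of 0.739. Its second probe, at 232 against 294 and 275 against 294, had ratios of -0.25 and -0.08. Prss36, a further polyserase at 6.25 kb from the Prss8 probe, was at -0.04 and 0.15.

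Prss23 and Prss35 are a pair of related secreted proteases. Prss23 gave 1190 against 976 in the female and 1120 against 1110 in the male pools, with log2 ratios of 0.28 and 0.04 (limma adjusted p = 0.804). Prss35 gave 919 against 866 and 810 against 1170, with ratios of 0.08 and -0.43 (limma adjusted p = 0.859). Neither held a direction beyond the spread between the arrays. Prss12, the neurotrypsin of synapses, was at 0.02 and -0.08, and Prss22 and Prss27, which are known from airway and skin, at -0.15 and 0.19 and at -0.03 and 0.25.

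Of the plasminogen activators, Plat gave 908 against 865 in the female pools and 893 against 962 in the male pools. The log2 ratios of 0.06 and -0.11 lie on either side of 0 (limma adjusted p = 0.988), and the 95% confidence interval of the mean ran from 0.81-fold to 1.19-fold. Plau gave 40.7 against 42.5 and 30 against 56.3, with log2 ratios of -0.06 and -0.58. The male Pparg-cKO pool was the low one, the mean was -0.32 (SD 0.37, n = 2 arrays), and the limma adjusted p was 0.684. Of their partners described here 0 passed either test. Plaur, the urokinase receptor, was at 0.06 and -0.08, and Plg, the plasminogen gene expressed mainly in liver, at -0.13 and -0.66.

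The kallikreins are 27 genes within 534 kb of chromosome 7 (50950330 to 51484325 by the probes, mm9), and 14 of them belong to the Klk1b group that is found in rodents. Klk1b7-ps, counted in both numbers, is a pseudogene by its name and was not tested. Of the 26 measured on both arrays 14 were tested, with 0 above 0 on both arrays, 5 below 0 on both and 9 with opposite signs. The class median was -0.04 and the means ran from -0.23 to 0.03. Klk8, the neuropsin of brain and skin, was the only kallikrein with signals over 100 in all pools. It gave 757 against 820 in the female pools and 688 against 799 in the male pools, with nearly equal log2 ratios of -0.12 and -0.13. Both Pparg-cKO pools were below both controls, by a mean of 1.09-fold, and the limma adjusted p was 0.839. The 95% confidence interval of the ratio ran from 0.763-fold to 1.10-fold.

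The other kallikrein signals were low. Klk1b21 gave 24.4 to 30.2 in the 4 pools, and Klk10, Klk4, Klk9 and Klk1b9 stayed between 7.78 and 14.3. Klk1, the tissue kallikrein that releases kinins and is known from the kidney, gave 4.87 against 6.51 and 3.47 against 4.0, and was well above background in only 2 of the 4 channels. Klk5, Klk6 and Klk7, proteases of the outer skin, were not tested. Klk11 had no usable reading on the female array, where the scanner flagged all 4 of its spots as outliers. These spots read 110 to 239 in the Pparg-cKO channel and 81.6 to 132 in the control channel. On the male array 3 spots that were kept read 11.7 to 12.3 against 6.27 to 11.0, and the spot that was flagged read 117 against 190. No ratio is given for it.

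Within the Klk1b group some probes are nearly identical in sequence. Of 404 pairs of kallikrein probes of different genes, 2 matched in at least 50 of 60 bases at the best ungapped shift, Klk1b11 with Klk1b27 and Klk1b16 with Klk1b26, and outside the Klk1b group the closest pair matched in 35. The probe of Klk1b5 matched that of Klk1b26 in 49, and the probe of Klk1 matched that of Klk1b4 in 48. The readings of Klk1b5 and Klk1 are therefore uncertain as to gene as well. The closest pair is shown whole, since it sets how far these genes can be told apart, with the bases that differ in capitals.
Klk1b11, chr7:51255119-51255178, plus strand: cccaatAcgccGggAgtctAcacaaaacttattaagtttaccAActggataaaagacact
Klk1b27, chr7:51311959-51312018, plus strand: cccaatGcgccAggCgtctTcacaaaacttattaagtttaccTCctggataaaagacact
These probes match in 54 of 60 bases. Neither was well above background: Klk1b11 read 0.63 to 1.89 and Klk1b27 0.71 to 1.93 in the 4 pools, so both are uncertain as to gene and without a ratio.

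**Figure D5:**
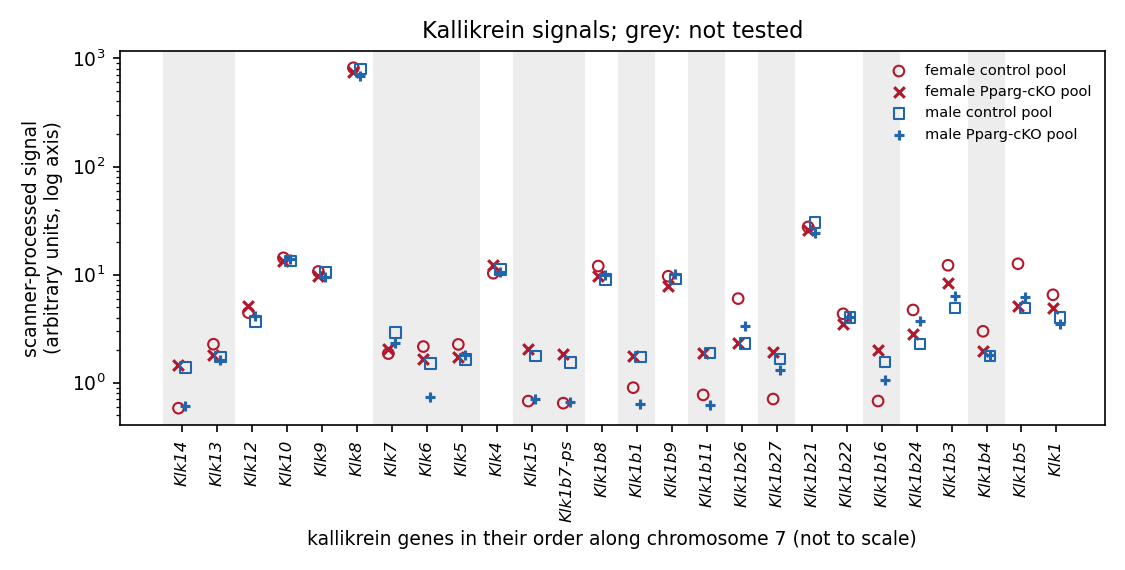
Scanner-processed signal (y axis, arbitrary units, logarithmic) of the 26 kallikreins measured on both arrays, in their order along chromosome 7, with circles and crosses for the female control and Pparg-cKO pools, squares and plus signs for the male ones, and grey bands for genes that were not tested. Klk8 reads 688 to 820 in all pools, while the genes under grey bands read about 0.6 to 3, and there the channel read in red tends to be the brighter one on both arrays.

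The dimmest members showed what the arrays give without a signal. For 33 members no channel was well above background. Their median processed signal was 1.82 in the female Pparg-cKO, 0.90 in the female control, 0.77 in the male Pparg-cKO and 1.66 in the male control channel, and for 25 of them the red channel was the higher one on both arrays. In those 25 the reading followed the dye and not the pool, and no ratio was drawn from any of the 33. Prss1, a trypsinogen gene, is among them. The 35 members that were tested but are not described one by one had mean log2 ratios between -0.23 (Klk1b5) and 0.18 (Prss48), unadjusted limma p-values of at least 0.160 and, in 28 of them, a mean signal under 20.

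Genes that work with the members were read from 3 lists. Of 21 further inhibitors of serine proteases 13 were tested and 0 passed either test, with a median log2 ratio of 0.08. The largest ratios were those of Spink8, a Kazal-type inhibitor gene, at 0.70 and 0.73 (limma adjusted p = 0.0833), and Wfdc2, which encodes a secreted protein with whey acidic protein domains, at 0.72 and 0.54 (limma adjusted p = 0.137). Of 26 substrates, receptors and zymogens 21 were tested and 0 passed, with a median of -0.01. Epcam, a membrane protein that matriptase cuts, was at 0.41 and 0.48 (limma adjusted p = 0.273). Of the sodium channel subunits, Scnn1a was at 0.10 and 0.72, Scnn1b at 0.23 and 0.85 and Scnn1g at -0.25 and -0.17. Hgf was at -0.09 and -0.30 and its receptor Met at 0.10 and 0.40. The protease receptor gene F2rl1 gave 11.7 to 13.9 in the 4 pools. Tmem27 was at -0.56 and -1.22 (limma adjusted p = 0.193).

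Of 31 other proteases with the trypsin fold 25 were tested, and Cela1, a pancreatic-type elastase, was the only one called. Its signals were 67.9 against 181 in the female pools and 55.3 against 139 in the male pools, with log2 ratios of -1.21 and -1.14. It fell by 1.17 on the log2 scale, 2.26-fold lower, with a limma adjusted p of 0.0223, and it passed the fold rule. The other pancreatic acinar genes tested, Cpa1, Cpb1, Ctrb1 and Amy2a5, were at -0.10, -0.25, -0.04 and 0.08 on average, and the median of that list, which holds Cela1, was -0.10. The other 24 proteases of this list, among them Htra1, the complement gene C1ra and the granzyme gene Gzma, did not pass, and the list median was 0.03.

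The marker lists gave the following values. The sign of the superficial urothelial genes is no finding, since such markers were among the grounds for the direction used. The superficial urothelial genes had a median log2 ratio of -1.26, and of the 6 genes Krt20 (mean -3.09) and Upk3b (-1.67) passed in limma and 4 passed the fold rule. Of the 4 basal genes Krt14 and Krt15 passed as higher, at 1.00 and 1.18, while Trp63 (-0.53 and -0.44) and Krt5 (-0.86 and 0.35) did not pass, and the median was 0.38. Smooth muscle, endothelial and macrophage lists had medians of -0.18, 0.12 and 0.001 with 0 genes called. Mast cell genes had a median of 0.29 and 0 called. The liver genes had medians of -0.13 (female array) and -1.08 (male array), of which Trf passed the fold rule as lower, and F2, which is made in liver, was at -0.08 and -0.90. Trf was lower on both arrays, at 1350 against 2320 in the female and 1460 against 2650 in the male pools. For Alb, Afp, Apoa1, Fgb and F2 the male control pool stood apart as high. Alb read 598 against 690 in the female and 725 against 1540 in the male pools, and F2 18.7 against 20.9 and 18.4 against 47.5. Plg was likewise highest in the male control pool, at 26.1. Of the 5 genes in the distal kidney tubule list only Aqp2, a collecting duct gene, was tested, at -0.15. Slc12a1, Slc12a3, Umod and Calb1 were not tested. In the male germ cell list Prm1 was called at 3.73 and the other 4 genes had means between -0.10 and 0.18. Prm1 was high in the female as well as in the male Pparg-cKO pool, at 359 against 17.7 and 606 against 20.4. The part of these cell types in the ratios of the members was not tested.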

How the data were processed

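Per the labels and the study's methods, RNA of each pool was amplified in 1 round of T7 transcription, labelled with AlexaFluor555 or AlexaFluor647 and hybridised to a pair of Agilent whole mouse genome oligonucleotide arrays of 1 slide. The deposited scanner files (Agilent Feature Extraction 10.7.3.1) hold, per the file headers, spot intensity on a linear scale, and a log10 ratio of red over green from the processed signals, which was used only to check the orientation. The deposited value table holds the authors' signed fold changes, a score of at least 1 in size with the sign giving the direction; 28.3% and 28.4% of its cells are exactly 1. It was turned into log2 ratios for an alternative and for the direction: across 26122 probes its correlation with log2 red over green was 0.992 on replicate 1 and -0.995 on replicate 2. This settled the scale of the table and not its direction, for which the deposited sign was taken as likely.

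Each array held 174979 spots, 4 for each of 39429 probes. Outlier spots (2.87% and 3.24%) were left out, and 0 spots were saturated. Intensities were corrected by normexp with an offset of 50 and ratios were then adjusted per array by loess, using limma 3.58.1 (R 4.3.3), with control spots at weight 0. Spots of a probe were averaged and the probe with the highest mean brightness stood for a gene. The mean of the 2 ratios was tested against 0 with lmFit and eBayes, as a two-sided test. P-values were adjusted by Benjamini-Hochberg over the genes that cleared the background on each array in 1 channel or both (well above background in a share of at least 0.5 of the kept spots). The fit was also run on simulated data, in which known shifts were equal on both arrays. Those data held no dye, sex or array effect, so that run does not bear on such effects. A fit has 1 residual degree of freedom per gene plus a prior of 4, and the number of arrays limits the precision. The p-values measure the spread between these 2 pairs of pools, which differ in sex and dye. Gene names are those of the array design; 95 of 105 member probes matched a RefSeq transcript (GRCm38.p6) and 0 of these had another symbol. The members, partner lists and marker lists were chosen with earlier results of these data known. Values per array were given for members past either test, past 1.5-fold on both arrays, among the 12 brightest, or named singly in the selection (14 genes), and for 3 more at an unadjusted p under 0.05, chosen after their values were seen. The partner lists were inhibitors, substrates with receptors and zymogens, and other trypsin-fold proteases, of which single values of a few genes are not reported here. The marker lists were superficial and basal urothelium, all epithelium, smooth muscle, endothelium, macrophage, mast cell, pancreatic acinar, liver, distal kidney tubule and male germ cell. Alternatives covered the background correction, normalisation, probe choice, outlier spots, the filter on dim probes, the thresholds, the deposited table and each array alone.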

Additional observations from a re-analysis of the deposited data

Results flagged for a closer look

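Tmprss2 had opposite signs on the 2 arrays, each at least 1.2-fold from 0: its log2 ratio was -0.44 in the female and 0.27 in the male pair of pools, a difference of 0.71. The difference was not tested, since there was 1 array per sex, and sex and dye orientation changed together.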

How the results depend on the processing

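The fold rule called 258 genes in the main processing, 112 with 2-fold in place of 1.5-fold, and 444 to 1253 on a single array. Members called by it stayed at 0 except on the male array alone, where Hpn, Spint2, St14 and Tmprss4 passed (0 to 4 over the single arrays). In limma 169 genes were called, against 571 with normexp and no offset, 0 with the deposited value table (1914 genes had an unadjusted p under 0.05 in the main processing) and 94 without a filter on dim probes. Prss32 was the only member called, making the count 1 with normexp and no offset and 1 with scanner-processed signals. The median log2 ratio of the members tested was -0.082 with scanner-processed signals. Plat reversed to 0.049 with median centring and 0.0103 with the deposited table, and Tmprss3 to 0.063 with median centring, none of them called. Median centring moved the median of all genes on the male array to 0.10. Cela1 kept its direction with the deposited table, at -1.38 (limma adjusted p = 0.533), but lost its call. The filter on dim probes was varied for single members after seeing the data. Of the 143 tested values of the 17 members and Cela1 under these alternatives, 137 kept their direction and their side of the threshold. On a single array, without a test, the sign differed from that of the mean in 6 of 36 values, for Plat, Prss35, Spint1, Spint2, Tmprss2 and Tmprss3. No paired analysis was possible because the labels give only 1 group, in which each array already compares its own pair of pools.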
